A study of Mus musculus with 6 samples.

Results

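The 40 genes described here act in DNA replication and cell division, and they were taken by name from the 28752 genes of an RNA sequencing table. They comprised 12 S-phase genes (Mcm2 to Mcm7, Pcna, Rrm1, Rrm2, Gins2, Cdc6 and Cdt1), 2 other replication genes (Tyms and Cdc45), 3 genes of the G1/S transition (Ccne1, Ccne2 and E2f1) and 23 genes of G2 and mitosis. All 40 were listed once, and all 40 passed the filter on low counts that left 18348 genes for testing. The samples were labelled as intestinal crypt stem cells, and the paper calls the sequenced material intestinal crypt cells. Its general methods describe Lgr5+ intestinal stem cells (ISCs) taken from Lgr5-GFP mice and grown as crypt-villus organoids. They do not say that the sequenced samples were prepared in this way. The vector group (n = 3; genotype given as wild type) was compared with the circEZH2_005 group (n = 3), in which the circular RNA was overexpressed from an adenovirus, and infection lasted 72 h according to the labels. All 6 samples, controls included, had also been exposed to hypoxia/reoxygenation (H/R), with 4 h of hypoxia at 2% O2, and no sample without this exposure was analysed here. The promoter driving the circular RNA, the age of the mice and whether samples came from separate animals are not given in the labels, so p-values measure the spread between these samples, which may be technical. Polyadenylated RNA was sequenced, and circEZH2_005 itself was not analysed here.

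A dividing cell licenses its replication origins in G1 with the MCM helicase, which Cdc6 and Cdt1 load, copies its DNA in S phase with Pcna as the clamp that holds the polymerases, and separates the copies in mitosis with kinesins, kinetochore proteins and the kinases Cdk1, Plk1, Aurka and Aurkb. Transcription of the replication genes is controlled by E2F factors, whereas many mitotic genes are controlled through the MuvB complex, with Mybl2 and Foxm1, at the cell cycle genes homology region (CHR), and by NF-Y at CCAAT boxes. In the intestine, the Lgr5+ stem cells and their transit-amplifying daughters divide, and most differentiated cells have left the cell cycle.

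The promoters of the members are shown first because the S-phase and the mitotic list differ in their motifs, which owe nothing to the expression values. RefSeq promoters (GRCm38.p6), from 250 bases before to 50 bases after the start site, were matched for 32 of the 40 members, 10 of them S-phase and 18 mitotic. E2F-like matches (TTTCCCGC, TTTCGCGC, TTTGCCGC or TTTGGCGC, both strands) were found in 6 of 10 S-phase promoters (60.0%), in 1 of 18 mitotic promoters (5.556%) and in 2.265% of all 32851 promoters of the same length. CHR matches (TTTGAA or TTCGAA, both strands) were found in 2 of 10 S-phase promoters, in 14 of 18 mitotic promoters (77.78%) and in 19.23% of all promoters. CCAAT matches (CCAAT, both strands) were found in 8 of 10 S-phase, 16 of 18 mitotic and 37.41% of all promoters. Neighbouring E2F-like matches on opposite strands overlapped in Mcm5 and Mcm6. A match describes letters and not an occupied site.

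The windows below hold the matches between 150 bases before and 40 bases after the start site for the 4 members of each list with the smallest p-values among those with a matched promoter and a match, with 10 bases on either side. Capitals mark the motif matches, and a match on the other strand reads in reverse complement (GCGGGAAA for TTTCCCGC and ATTGG for CCAAT). The S-phase windows were those of Cdc6 (chr11:98908003-98908030, plus strand), Cdt1 (chr8:122568037-122568064, plus strand), Pcna (chr2:132253253-132253277, minus strand) and Rrm1 (chr7:102441594-102441664, plus strand).
Cdc6: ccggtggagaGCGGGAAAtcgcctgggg
Cdt1: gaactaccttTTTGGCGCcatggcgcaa
Pcna: cacgggtacgATTGGtccttgagga
Rrm1: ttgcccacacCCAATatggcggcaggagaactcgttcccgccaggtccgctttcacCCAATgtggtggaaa
The E2F-like match began at position -138 from the start site in Cdc6 and at position 33 in Cdt1, while Pcna and Rrm1 held CCAAT matches only.

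The mitotic windows were those of Bub1 (chr2:127831830-127831937), Kif23 (chr9:61946782-61946816), Cenpf (chr1:189688069-189688228) and Ccnb2 (chr9:70421535-70421651), all on the minus strand.
Bub1: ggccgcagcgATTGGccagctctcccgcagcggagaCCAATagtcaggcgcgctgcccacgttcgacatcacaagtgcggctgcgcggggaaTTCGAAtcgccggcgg
Kif23: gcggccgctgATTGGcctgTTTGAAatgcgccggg
Cenpf: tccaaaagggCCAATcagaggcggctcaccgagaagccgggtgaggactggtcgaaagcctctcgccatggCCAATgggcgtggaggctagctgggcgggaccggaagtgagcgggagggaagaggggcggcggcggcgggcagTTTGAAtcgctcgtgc
Ccnb2: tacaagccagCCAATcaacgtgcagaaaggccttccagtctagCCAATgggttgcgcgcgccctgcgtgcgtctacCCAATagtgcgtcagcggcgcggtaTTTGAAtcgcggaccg
In all 4 windows a CHR match lay just downstream of the start site, at position 15 in Bub1, 3 in Kif23, 3 in Cenpf and 5 in Ccnb2, and 1 to 3 CCAAT matches lay upstream of it.

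The counts summed to between 71506487 and 79919893 per sample, and the members had between 588 and 48347 counts in a sample, so the 3 samples per group limit the precision more than the depth does. Of the 18348 genes tested, 493 (2.69%) were higher and 181 (0.986%) lower with circEZH2_005 at an adjusted p-value under 0.05. With other scalings of the same counts the split was 473 higher and 187 lower (median-of-ratios) and 437 higher and 247 lower (upper quartile). limma on log2(FPKM + 1), which changes the test, the unit and the filter together (13278 genes), gave 371 higher and 364 lower, with a median log2 fold change of -0.0739 over all genes. The labelled cell type was checked with its markers. Levels are CPM, the counts scaled to a common library size with TMM, given in the order of samples 1, 2 and 3 of a group. Lgr5, the defining stem cell marker, was at 16.1, 12.1 and 18.4 CPM with the vector and at 8.55, 9.10 and 7.70 CPM with circEZH2_005, and markers of enterocytes, goblet and Paneth cells were also at high levels (Alpi above 615 CPM, Muc2 above 544 CPM and Lyz1 at least 945.9 CPM in every sample), so the libraries held differentiated cells as well. All 14 leukocyte markers were detected in every sample, and their summed level ranged from 92.8 to 267 CPM with the vector and from 360 to 631 CPM with circEZH2_005. Leukocyte markers were highest in vector sample 2 (267 CPM) and circEZH2_005 sample 1 (631 CPM) of their groups, which were also the samples highest in cell cycle genes, and the part of these cells in the levels below was not tested. In bulk RNA, fewer dividing cells and less RNA per dividing cell cannot be told apart.

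Between circEZH2_005 and vector, 0 of the 40 cell cycle genes passed an adjusted p-value of 0.05, against 3.67% of all genes tested (edgeR's quasi-likelihood test, Benjamini-Hochberg adjustment over all genes tested, smallest adjusted p = 0.211, Cdc6). Levels with circEZH2_005 were between 0.824 (Bub1) and 1.19 (Cdc6) times those with the vector. At an unadjusted p-value under 0.05 the count was 1 of 40, against 23.7% of all genes tested, and the groups did not overlap in 1 of 40, against 30.6% of all genes. In both cases the gene was Cdc6. DESeq2 and limma on log2(FPKM + 1) or log2(FPKM + 0.1) also called 0 of 40, with 0 of 40 at an unadjusted p-value under 0.05. Of all genes in these 3 fits, 13.6%, 5.54% and 4.84% were called. An unadjusted p-value under 0.05 was found for 24.6%, 29.2% and 29.3% of them. The log2 fold changes, circEZH2_005 over vector, ranged from -0.28 (Bub1) to 0.25 (Cdc6), with 21 positive and 19 negative and a median of 0.0114. Their median absolute size was 0.0884, compared with 0.250 for all genes tested and 0.169 for the 9178 genes in the same range of mean CPM.

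**Figure D1:**
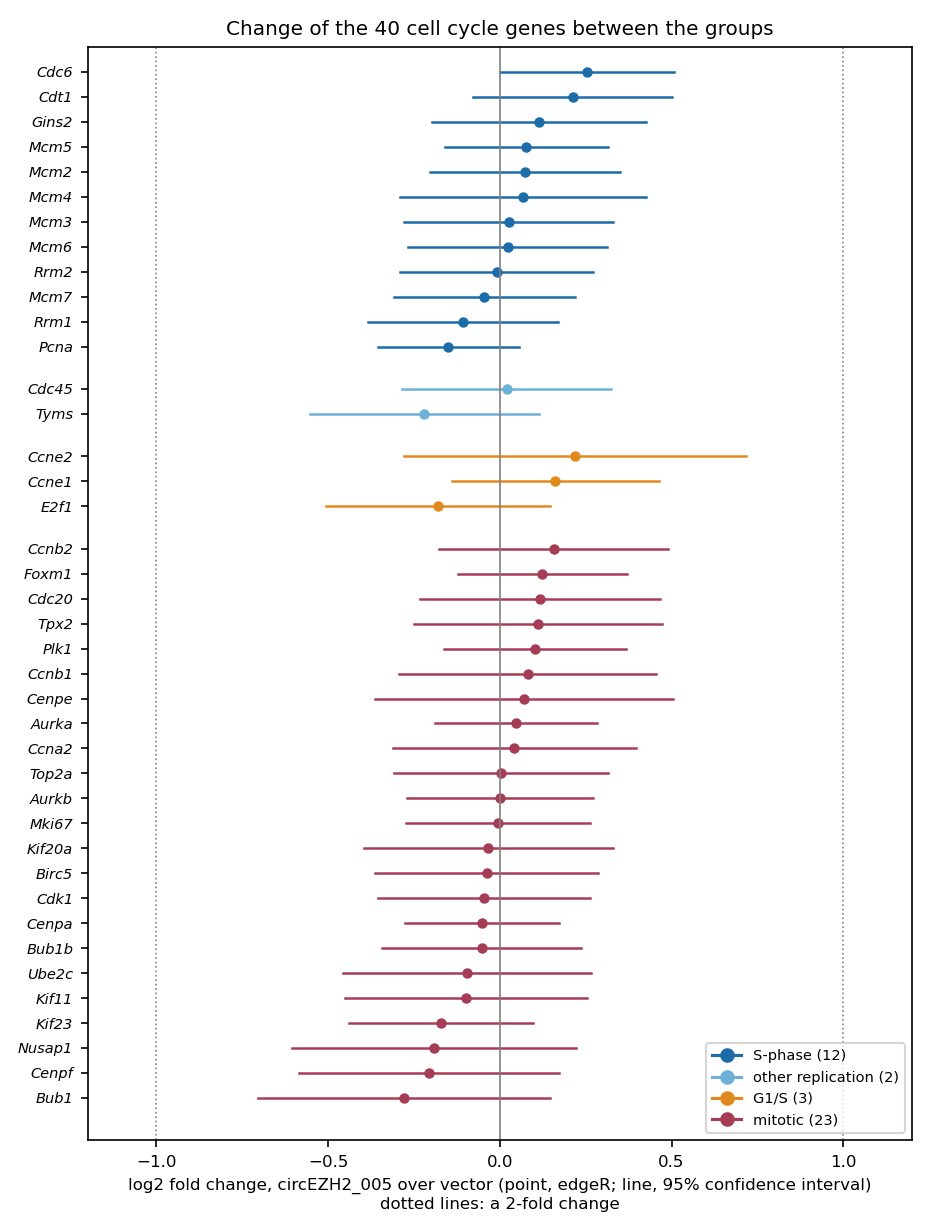
Log2 fold change of each of the 40 genes, circEZH2_005 over vector (x axis; points from edgeR, lines the 95% confidence interval), with genes grouped by role (y axis). The points lie between -0.28 and 0.25 and every interval stays between the dotted lines of a 2-fold change.

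The precision of these values bounds the changes that the 6 samples leave possible. The 95% confidence intervals of all 40 members lay within a 2-fold change in either direction, and those of 37 lay within 1.5-fold. For the 12 S-phase genes all intervals were within 1.5-fold, the lowest bound being -0.38 and the highest 0.51 on the log2 scale. For the 23 mitotic genes 21 intervals were within 1.5-fold, with bounds from -0.70 to 0.50. The median standard error of the members was 0.132, compared with 0.111 for the genes of the same CPM range. The interval of Cdc6, which is not adjusted for the number of genes, just excluded 0 (0.0003 to 0.51), and those of the other members included 0. Changes of any size inside an interval remain possible with 3 samples per group.

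Among the origin licensing factors, Cdc6, the ATPase that recruits the helicase, was at 14.7, 16.8 and 15.0 CPM with the vector and at 19.5, 17.3 and 18.5 CPM with circEZH2_005. The 3 circEZH2_005 samples lay above the 3 vector samples, with means of 18.5 ± 1.10 and 15.5 ± 1.15 CPM (SD, n = 3), a 1.19-fold difference (log2 0.25, standard error 0.11, adjusted p = 0.211 from edgeR). Cdt1, which loads the MCM helicase together with Cdc6, was at 22.2, 23.6 and 26.2 CPM with the vector and at 32.2, 24.9 and 26.3 CPM with circEZH2_005. Its groups overlapped, and circEZH2_005 sample 1 stood above the other 5 samples (log2 0.21, standard error 0.12, adjusted p = 0.352 from edgeR). The 6 subunits of the MCM helicase itself had log2 fold changes from -0.0451 (Mcm7) to 0.0765 (Mcm5), with 5 of 6 positive. Mcm2 was at 70.2 ± 7.47 CPM with the vector and 73.8 ± 8.95 CPM with circEZH2_005, and Mcm4 at 69.1 ± 10.5 and 72.4 ± 12.4 CPM (SD, n = 3). Mcm3 (0.0256) and Mcm6 (0.0227) were still closer to 0.

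Gins2, a subunit of the GINS complex that activates the helicase, was at 28.3 ± 3.49 and 30.7 ± 4.09 CPM (log2 0.11, standard error 0.13). Cdc45, the partner of GINS and MCM in the active helicase, was at 22.95 ± 3.06 and 23.3 ± 2.35 CPM (log2 0.0204). Both differences were smaller than the spread between samples.

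Pcna, Rrm1, Rrm2 and Tyms, of the replication fork and of nucleotide synthesis, had negative log2 fold changes, none past the test. Pcna was at 172, 196 and 178 CPM with the vector and at 173, 153 and 166 CPM with circEZH2_005. The groups overlapped, since circEZH2_005 sample 1 lay just above vector sample 1 (log2 -0.15, standard error 0.0887, adjusted p = 0.358 from edgeR). Rrm1 and Rrm2, the large and small subunits of ribonucleotide reductase, had log2 fold changes of -0.11 and -0.0092. Tyms, the thymidylate synthase, was at 48.0 ± 4.51 CPM with the vector and 41.2 ± 7.67 CPM with circEZH2_005 (log2 -0.22, standard error 0.14, adjusted p = 0.405 from edgeR).

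Of the G1/S genes, Ccne1 (cyclin E1) was at 11.9, 11.9 and 12.02 CPM with the vector and at 14.9, 13.6 and 11.6 CPM with circEZH2_005. Ccne2 (cyclin E2) was at 11.4, 20.3 and 16.4 CPM with the vector and at 21.4, 18.6 and 16.0 CPM with circEZH2_005. E2f1, the activating E2F factor, was at 9.34, 10.6 and 10.2 CPM with the vector and at 9.89, 7.90 and 8.82 CPM with circEZH2_005. The groups of all 3 genes overlapped. The log2 fold changes were 0.16 (standard error 0.13) for Ccne1, 0.22 (0.21) for Ccne2 and -0.18 (0.14) for E2f1, with adjusted p-values of 0.504, 0.591 and 0.494 from edgeR. Ccne2 had the widest spread of the 40 members, its highest sample being 1.87 times its lowest. The median of this ratio over the members was 1.37, and the smallest was 1.21.

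The 3 mitotic genes with the largest differences had negative log2 fold changes, none past the test. Bub1, a spindle checkpoint kinase, was at 40.04, 54.0 and 44.4 CPM with the vector and at 47.5, 36.9 and 29.7 CPM with circEZH2_005 (log2 -0.28, standard error 0.18, adjusted p = 0.405 from edgeR). Cenpf, an outer kinetochore protein of G2 and mitosis, was at 80.4, 94.7 and 83.5 CPM with the vector and at 95.2, 65.7 and 63.2 CPM with circEZH2_005 (log2 -0.21, standard error 0.16, adjusted p = 0.499 from edgeR). Nusap1, a spindle microtubule-binding protein, was at 71.7, 90.8 and 71.4 CPM with the vector and at 87.3, 57.3 and 60.2 CPM with circEZH2_005 (log2 -0.19, standard error 0.18, adjusted p = 0.573 from edgeR). In all 3 genes circEZH2_005 samples 2 and 3 lay below every vector sample, while circEZH2_005 sample 1 lay among or above them. Kif23, a kinesin of the central spindle in cytokinesis, had a log2 fold change of -0.17, and the other kinesins Kif11 and Kif20a had values of -0.0992 and -0.0332.

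Mki67, which encodes the proliferation antigen Ki-67, was at 501, 533 and 538 CPM with the vector and at 608, 472 and 485 CPM with circEZH2_005. Its group means of 524 ± 20.2 and 522 ± 75.0 CPM (SD, n = 3) gave a log2 fold change of -0.0052 (standard error 0.12, 95% confidence interval -0.27 to 0.26). One circEZH2_005 sample lay above the whole vector range and the other 2 below it. Top2a, the topoisomerase that untangles replicated chromosomes, was at 451 ± 34.8 and 452 ± 78.2 CPM.

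The cyclins and kinases of mitotic entry were close to the vector. Ccnb2 (cyclin B2) had the highest log2 fold change of the mitotic list, 0.16 (standard error 0.14). Ccnb1 (cyclin B1) and Ccna2 (cyclin A2) were at 0.0807 and 0.0423, and Cdk1, the kinase they activate, at -0.0453. Plk1, Aurka and Aurkb, the kinases of spindle assembly and chromosome segregation, were at 0.10, 0.0470 and -0.0002, Tpx2, the activator of Aurka, at 0.11, and Birc5 (survivin), the partner of Aurkb, at -0.0388. Foxm1, the transcription factor of the mitotic genes, was at 42.1 ± 1.15 CPM with the vector and 45.9 ± 6.14 CPM with circEZH2_005 (log2 0.12, standard error 0.11). Cdc20 and Ube2c, the activator and the ubiquitin-conjugating enzyme of the anaphase-promoting complex, were at 0.12 and -0.0962. Among kinetochore and checkpoint genes, Cenpa, the histone variant of the centromere, was at -0.0523, Cenpe, the kinetochore kinesin, at 0.0703 and Bub1b (BubR1) at -0.0530. None of these passed the test.

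The question put to the lists was whether S-phase and mitotic genes moved apart. The median log2 fold change was 0.0465 for the S-phase genes, with 8 positive and 4 negative, and -0.0052 for the mitotic genes, with 10 positive and 13 negative. The median of all genes tested was 0. Called were 0 of 12 and 0 of 23, against 3.67% of all genes tested in either direction. An unadjusted p-value under 0.05 was found for 1 of 12 and 0 of 23, against 23.7% of all genes. In each sample, the mean log2 CPM of the S-phase list minus that of the mitotic list came to -0.29, -0.36 and -0.21 with the vector and to -0.30, -0.22 and -0.13 with circEZH2_005. The groups overlapped, and their means of -0.29 ± 0.07 and -0.22 ± 0.08 (SD, n = 3) differed by 0.0675, less than the spread between samples. This within-sample difference does not depend on the scaling of the libraries. The S-phase list on its own was at 6.081 ± 0.0793 with the vector and 6.12 ± 0.17 with circEZH2_005, and the mitotic list at 6.367 ± 0.13 and 6.339 ± 0.24. S-phase transcripts made up 0.105 ± 0.00721% of the counts with the vector and 0.0998 ± 0.0181% with circEZH2_005, and mitotic transcripts 0.260 ± 0.0231% and 0.248 ± 0.0575%.

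**Figure D2:**
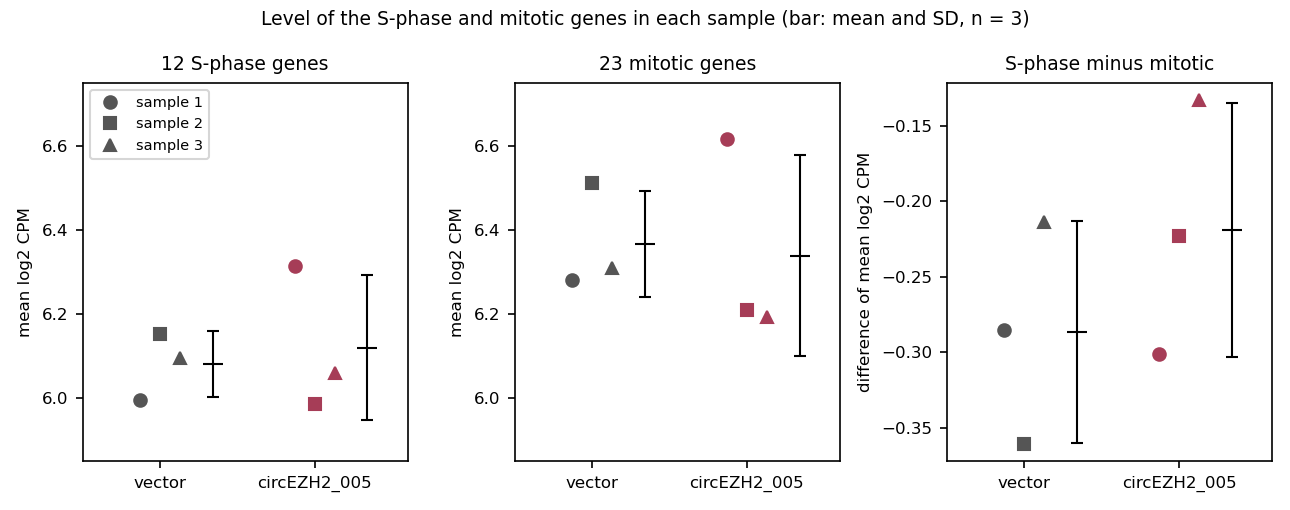
Mean log2 CPM of the 12 S-phase genes (left), of the 23 mitotic genes (middle) and the difference of these means (right) in each sample, with symbols for sample 1 to 3 of each group and the mean and SD (n = 3) beside them. circEZH2_005 sample 1 is the highest in both lists, whereas its difference of -0.30 lies inside the vector range of -0.36 to -0.21.

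The members varied together between samples more than between groups. circEZH2_005 sample 1 was the highest of the 6 samples in 32 of 40 members, 10 of 12 S-phase and 19 of 23 mitotic, and vector sample 2 was the highest in the other 8. Over all genes tested, circEZH2_005 sample 1 was the highest in 19.5% and vector sample 2 in 17.3%. Compared with the mean of the other 5 samples, circEZH2_005 sample 1 was higher in 40 of 40 members, by a median of 0.29 on the log2 scale, while its median over all genes was 0.0177. vector sample 2 was higher in 22 of 23 mitotic genes (median 0.18) and in 8 of 12 S-phase genes (median 0.0419). circEZH2_005 sample 3 was lower in 23 of 23 mitotic genes (median -0.18) and in 8 of 12 S-phase genes (median -0.0559), and circEZH2_005 sample 2 was lower in 21 of 23 and 10 of 12 (medians -0.18 and -0.18). The lowest sample was circEZH2_005 sample 2 in 16 members, circEZH2_005 sample 3 in 11, vector sample 1 in 10 and vector sample 3 in 3. The members are not independent of each other, and these counts are descriptions.

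**Figure D3:**
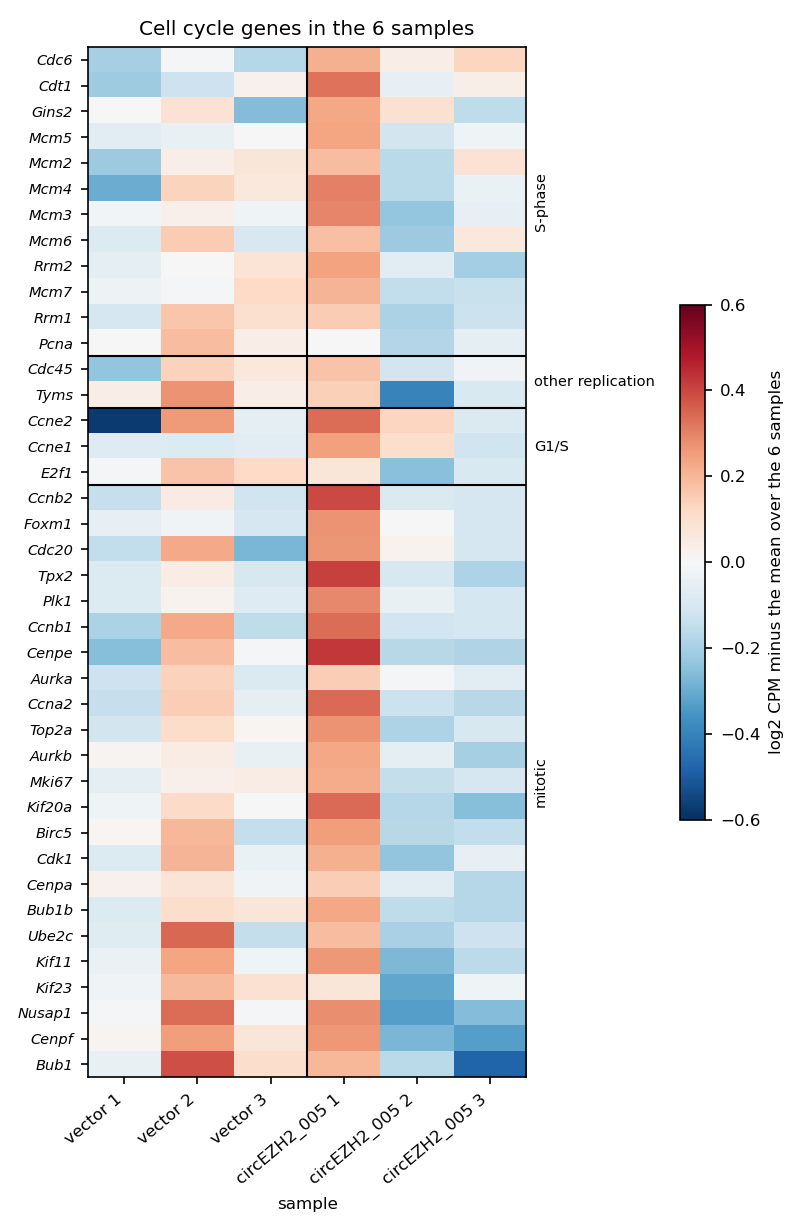
Log2 CPM of the 40 genes (rows, grouped by role) in the 6 samples (columns), each minus the mean of that gene over the samples, in colour from blue (lower) to red (higher). The column of circEZH2_005 sample 1 is red for nearly all genes, being highest in 32 of 40, and the columns of circEZH2_005 samples 2 and 3 are mostly blue.

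Values that rest on circEZH2_005 sample 1 changed when it was left out. Without it the median log2 fold change was -0.0749 for the S-phase genes and -0.15 for the mitotic genes. In that fit edgeR called 0 of 40 members, against 3.59% of all genes. An unadjusted p-value under 0.05 was found for 6 of 40, against 23.4% of all genes. All 6 were lower with circEZH2_005 (Tyms, Bub1, Cenpf, Kif11, Kif20a and Nusap1). The smallest adjusted p-value of edgeR was then 0.0717 (Cenpf, log2 -0.42, standard error 0.0988). Without both vector sample 2 and circEZH2_005 sample 1, an alternative chosen after seeing the data, edgeR called 1 of 40, Cenpf, which was lower with circEZH2_005 (log2 -0.36, adjusted p = 0.0371), against 10.4% of all genes in that fit, and the medians were -0.0287 for the S-phase and -0.10 for the mitotic genes. Across all alternatives the median ranged from -0.0749 to 0.132 for the S-phase list and from -0.15 to 0.0545 for the mitotic list, and both ranges include 0.

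On the deposited FPKM scale, which takes the length of the transcript into account, Pcna had the highest level of the 40 genes. Its mean FPKM was 70.1 ± 5.66 with the vector and 59.7 ± 7.003 with circEZH2_005 (SD, n = 3). Mki67 (mean of 46.8 FPKM over the 6 samples), Top2a (45.2 FPKM) and Ccna2 (38.3 FPKM) came next, and Mki67 (48.2 ± 2.45 FPKM with the vector) and Top2a (46.3 ± 4.21 FPKM) did not differ beyond their spread. E2f1 (2.70 FPKM) and Cdc6 (2.91 FPKM) were the lowest, below Ccne1 (4.26 FPKM) and Ccne2 (4.46 FPKM). The licensing factors Cdc6 and Cdt1 (7.40 FPKM) thus lay below the MCM subunits, which ranged from 9.31 FPKM (Mcm2) to 26.9 FPKM (Mcm6).

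A further 235 genes of the cell cycle, in 12 lists by role, were examined beside the members, and 234 of them were tested. edgeR called 3 of 234 higher and 0 lower at an adjusted p-value under 0.05, against 2.69% and 0.986% of all genes. At an unadjusted p-value under 0.05, 10 of 234 were higher and 16 lower, against 23.7% of all genes in either direction. Their median log2 fold change was -0.0062, with 115 positive and 119 negative.

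The 3 called genes act in G1, in nucleotide supply and in the replication checkpoint. Ccnd1 (cyclin D1), which starts G1 progression with Cdk4 and Cdk6, rose from 146, 189 and 160 CPM with the vector to 248, 231 and 250 CPM with circEZH2_005 (log2 0.56, standard error 0.11, adjusted p = 0.0412 from edgeR). The lowest circEZH2_005 sample lay above the highest vector sample. Samhd1, which degrades deoxynucleotides and is abundant in leukocytes, rose from 121, 186 and 107 CPM to 263, 385 and 262 CPM (log2 1.14, standard error 0.24, adjusted p = 0.0482 from edgeR). The leukocyte marker sum was likewise higher in all 3 circEZH2_005 samples than in the vector samples, and its part in the Samhd1 value was not tested. Atrip, the partner of the checkpoint kinase Atr, rose from 11.6, 13.5 and 13.1 CPM to 18.3, 18.1 and 20.1 CPM (log2 0.56, standard error 0.11, adjusted p = 0.0433 from edgeR), but it overlaps Trex1 on the same strand, so that reads of the pair may be shared. All 3 calls were just under the threshold, and the number of calls among these genes was 0 without any 1 of vector sample 1, vector sample 3, circEZH2_005 sample 2 or circEZH2_005 sample 3.

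In the other lists no gene was called by edgeR, and the member with the largest difference of each is given. Among the CDK inhibitors, with 6 of 6 tested genes positive and a median of 0.24, Cdkn1a (p21) was at 120, 98.8 and 109 CPM with the vector and at 134, 250 and 170 CPM with circEZH2_005 (log2 0.76, standard error 0.21, adjusted p = 0.0862 from edgeR). Its groups did not overlap. Nasp, a histone chaperone of the chromatin assembly list, was at 125, 134 and 140 CPM with the vector and at 114, 87.3 and 105 CPM with circEZH2_005 (log2 -0.39, adjusted p = 0.0892 from edgeR). Anapc2, the cullin subunit of the anaphase-promoting complex, was at 53.1, 47.4 and 43.9 CPM with the vector and at 60.5, 62.97 and 60.8 CPM with circEZH2_005 (log2 0.35, adjusted p = 0.0673 from edgeR). The log2 fold change was -0.29 (standard error 0.15) for Orc5 of the origin recognition complex and -0.28 (0.16) for Rpa3 of the single-strand binding protein. It was -0.34 (0.21) for the kinetochore gene Cenpu and -0.42 (0.23) for the spindle gene Psrc1. It was -0.24 (0.0801) for Stag2 of cohesin and 0.22 (0.15) for Mybl2. The medians of the lists of origin licensing and firing (18 genes), fork and polymerases (30), kinetochore and spindle checkpoint (38), spindle and cytokinesis (27), mitotic kinases, APC/C and entry (30) and condensin and cohesin (19) lay between -0.0368 and 0.0477. The median was 0.0516 for G1 cyclins, CDKs and E2F/RB (12 of 21 positive), -0.0059 for chromatin assembly and 0.0036 for MuvB and MYBL2. It was -0.16 for nucleotide supply, with 10 of 13 genes negative beside the called Samhd1, and -0.0890 for replication checkpoint and repair, with 12 of 17 negative beside the called Atrip.

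**Figure D4:**
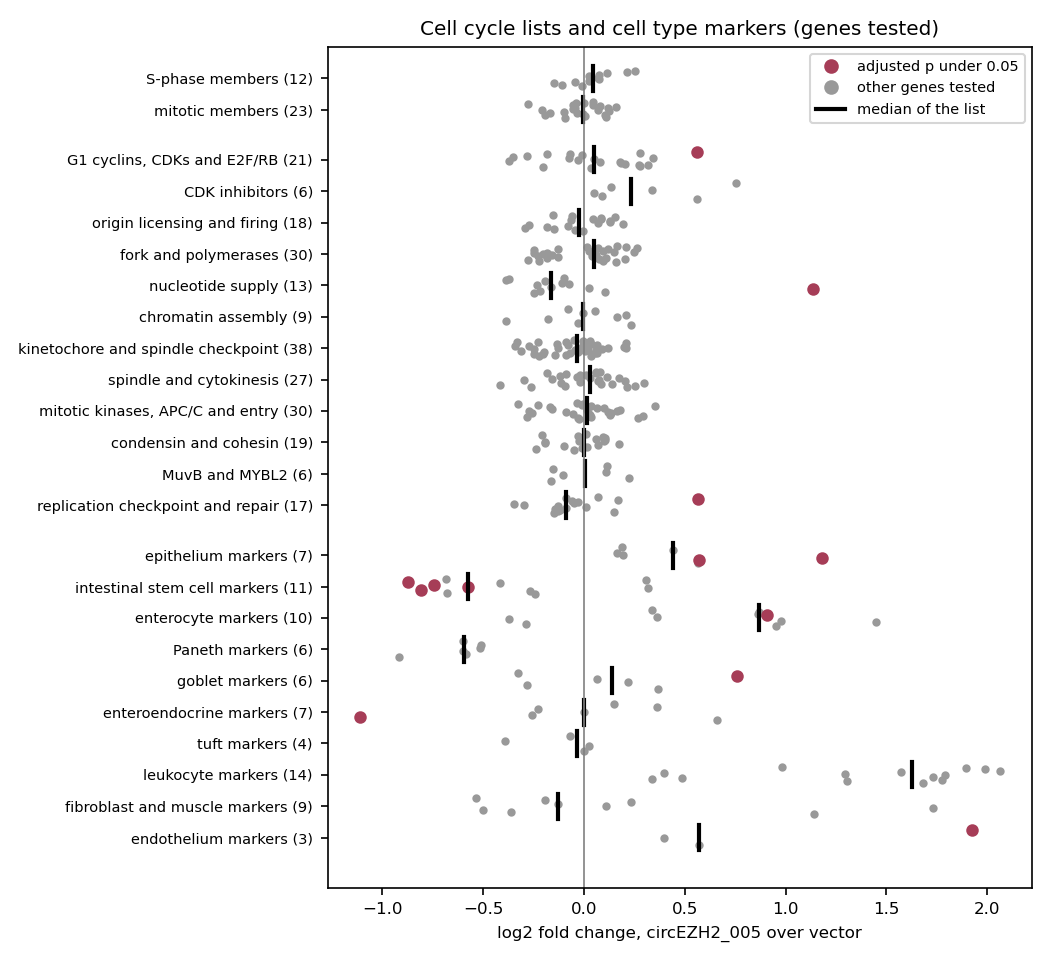
Log2 fold change, circEZH2_005 over vector (x axis), of each tested gene of the S-phase and mitotic members, of the other cell cycle lists and of the cell type marker lists (y axis, number of genes tested in brackets), with red points for an adjusted p-value under 0.05 and a bar at the median. The medians are 0.0465 for the S-phase and -0.0052 for the mitotic members and range from -0.16 (nucleotide supply) to 0.24 (CDK inhibitors) in the other cell cycle lists, while the stem cell markers have a median of -0.58 and the leukocyte markers one of 1.63.

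In the same libraries, several lists of cell type markers had larger median log2 fold changes than the cell cycle lists, a difference that was not tested. Over all genes tested, edgeR called 2.69% higher and 0.986% lower at an adjusted p-value under 0.05. Of 11 intestinal stem cell markers, 4 fell and 0 rose at this threshold, with 9 of 11 negative, 2 positive (Axin2 and Rnf43) and a list median of -0.58. The 4 called were Lgr5 (log2 -0.88), Smoc2 (-0.81), Prom1 (-0.745) and Rgmb (-0.58). Of the 11, 0 were called without any 1 of vector sample 1, vector sample 3, circEZH2_005 sample 2 or circEZH2_005 sample 3. Lgr5 was also not called with the replicate block (Smoc2 and Prom1 were) or without a filter on low counts (only Smoc2 was). Nor was it called in the limma fits (Smoc2, Rgmb and Prom1) or without circEZH2_005 sample 1 (Smoc2 and Rgmb). It was called with the other scalings, with the FPKM filter, with DESeq2 and without vector sample 2. Smoc2 fell from 112, 88.9 and 113 CPM with the vector to 60.1, 56.0 and 63.1 CPM with circEZH2_005, with no overlap. The mean log2 CPM of the stem cell markers was 5.214 ± 0.10 with the vector and 4.796 ± 0.12 with circEZH2_005, and the groups did not overlap, in contrast to the means of the S-phase and mitotic genes. In circEZH2_005 sample 1, the highest of the 6 in cell cycle genes, Lgr5 was at 8.55 CPM, as low as in the other circEZH2_005 samples. Of 10 enterocyte markers 1 rose (Apoa4, log2 0.91), with 8 positive and a median of 0.87, and of 7 epithelial markers 2 rose (Krt8, 0.57, and Krt20, 1.18), with 7 positive. With vector sample 1, vector sample 3, circEZH2_005 sample 2 or circEZH2_005 sample 3 left out, 0 enterocyte markers and 0 or 1 epithelial marker were called. Without circEZH2_005 sample 1, edgeR called 6 enterocyte and 4 epithelial markers higher, against 3.59% of all genes called in either direction. Without vector sample 2 it called 1 and 2, against 7.48% of all genes. DESeq2 on all samples called 6 and 4 higher, against 13.6% of all genes. The 6 Paneth markers were all negative with a median of -0.59 and 0 called. Of the 14 leukocyte markers 14 were positive, with a median of 1.63, 0 called by edgeR and 8 at an unadjusted p-value under 0.05, against 23.7% of all genes. DESeq2 called 7 of them higher, and edgeR called 8 higher without vector sample 2. Of all genes in these fits, 13.6% and 7.48% were called in either direction. With the replicate block or without any other 1 sample, edgeR called 0 of them. Of 6 goblet markers 4 were positive and 2 negative, with a median of 0.14 and 1 called higher (Clca1, log2 0.76). At an unadjusted p-value under 0.05, 2 goblet markers were higher and 2 lower. Of 7 enteroendocrine markers 4 were positive and 3 negative, with a median of 0.0001 and 1 called lower (Neurog3, -1.11). At an unadjusted p-value under 0.05, 2 enteroendocrine markers were higher and 2 lower. Of 3 endothelial markers tested 3 were positive and 1 was called (Pecam1, 1.93). The 4 tuft markers and the 9 fibroblast and muscle markers tested had medians of -0.0326 and -0.13 and 0 called by edgeR, with 0 and 1 at an unadjusted p-value under 0.05.

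Positions of the members in the table matched GENCODE M21 (GRCm38) in full for 37 of 40 genes and at 1 end or both for all 40. Cdc6 lies on chromosome 11 (98907801 to 98923940), Pcna on chromosome 2 (132249162 to 132253314), Bub1 on chromosome 2 (127801122 to 127831865), Cenpf on chromosome 1 (189640606 to 189688086) and Mki67 on chromosome 7 (135689784 to 135716361). Of the members, 7 overlap another listed gene on the same strand (Mcm7, with the Mir25, Mir106b and Mir93 genes in it, Rrm1, Top2a, Kif11, Tpx2, Nusap1 and Foxm1) and 12 overlap one on the other strand. No source says whether the counting used strand, so reads of these pairs cannot be told apart, whereas Cdc6, Cdt1, Pcna, Bub1, Cenpf and Mki67 overlap no listed gene.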

How the data were processed

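RNA sequencing libraries of vector (n = 3) and circEZH2_005 overexpression (n = 3) under H/R were grouped by sample title. Columns named as a negative control were matched to vector, since the labels give no other control. The authors deposited unnormalized read counts per gene. The authors also deposited FPKM values for every gene and sample. The submitters' processing notes name cutadapt 1.9, HISAT2 2.0.4, StringTie 1.3.4d, DESeq2 and the build mm10; the counter and its strand setting are not given in the sources used here.

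Counts were filtered with filterByExpr, scaled with TMM and tested in edgeR 4.0.16 (R 4.3.3) by quasi-likelihood, with no covariate, with Benjamini-Hochberg adjustment over 18348 genes and a threshold of 0.05. CPM are TMM-scaled counts, and per-sample list levels are means of log2 CPM with a prior count of 2. Standard errors were obtained from the log2 fold change and the F statistic. Alternatives used other scalings and filters, a replicate block, DESeq2 1.42.0, limma 3.58.1 (log2 of FPKM plus 1 or 0.1, genes averaging 0.5 FPKM or more), and samples left out. The test was tested on simulated data. Depth was 71506487 to 79919893 counts per sample. The promoter search used RefSeq sequences of GRCm38.p6.

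The members and lists were chosen with earlier results of these data known. All 40 members are accounted for. Values in every sample are given for called members, the 3 S-phase and 3 mitotic members with the largest absolute log2 fold change, and Mki67, Pcna, Ccne1, Ccne2 and E2f1. Other cell cycle lists are named by their called genes or, with none called, the largest difference. Marker genes given beside these were chosen after their values were seen.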

Additional observations from a re-analysis of the deposited data

How the results depend on the processing

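With 3 samples per group, changes of any size within the confidence intervals given above remain possible, and depth is not the limit. edgeR called 674 genes in all, compared with 169 without a filter on low counts, 277 with the replicate block, 2490 with DESeq2, 28 to 1432 without 1 sample (lowest without vector sample 1, highest without vector sample 2) and 1923 without both vector sample 2 and circEZH2_005 sample 1. The number of called members was 0 of 40 in 14 of 15 alternatives and 1, the mitotic gene Cenpf (-0.36), without both these samples. Of the other cell cycle genes (234 tested) 3 were called, against 3.67% of all genes. The number was 0 without a filter (0.588% of all genes called), 1 with the replicate block (1.51%) and 9 with DESeq2 (13.6%). It was 1 and 0 with limma at pseudocounts of 1 and 0.1 (5.54% and 4.84%). It was 0 to 4 without 1 sample (0.146% to 7.48%) and 6 without both samples (10.4%). The S-phase median log2 fold change ranged from -0.0749 to 0.132 and the mitotic one from -0.15 to 0.0545, so each took both signs. Their difference ranged from 0.0202 to 0.0773. These moves were smaller than the SD between samples (0.13, 0.19 and 0.079). That SD includes the samples left out, so for those fits the comparison could hardly come out otherwise and shows no stability. The sign changed in at least 1 of 15 alternatives for 25 of 40 members. Replicate numbers are shared by the groups, and no source says that they pair samples. Deviations of same-numbered samples correlated at -0.14, -0.0234 and 0.0363, which cannot show whether these samples were prepared together. Under the replicate block, 0 of 40 members were called (smallest adjusted p = 0.397 from edgeR).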
